A study of Homo sapiens with 6 samples.

Results

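The G1 cyclins and CDK inhibitors are the genes whose products start and hold back the kinases of the G1 phase, and they were followed here in RNA-Seq libraries of DMS53 cells with and without enforced expression of the transcription factor ONECUT2 (OC2). The members are 3 D-type cyclins (CCND1, CCND2 and CCND3), 2 E-type cyclins (CCNE1 and CCNE2), 3 inhibitors of the CIP/KIP family (CDKN1A, CDKN1B and CDKN1C) and 2 of the INK4 family (CDKN2C and CDKN2D). These 10 genes were taken by name, by a rule that sets no threshold on a measured value, out of 62696 genes in the counts files, and all 10 were among the 17307 genes with enough counts to be tested. They were chosen with earlier results of these data known. DMS53 is an established small cell lung cancer (SCLC) line with neuroendocrine (NE) features. The 3 control libraries came from cells transduced with an empty lentiviral vector, and the 3 OC2-OE libraries from cells transduced with the same kind of vector carrying OC2. Both groups were selected with puromycin, so that every library comes from transduced and selected cells of 1 line and OC2 expression was constitutive. The labels do not say whether the libraries of a group came from separate transductions, and p-values then measure only the spread between these libraries.

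G1 cyclins and CDK inhibitors work on the same enzymes. D-type cyclins bind CDK4 and CDK6, E-type cyclins bind CDK2, and the active complexes phosphorylate the retinoblastoma (pocket) proteins, which frees E2F factors to transcribe the genes of DNA replication. INK4 inhibitors bind CDK4 and CDK6 themselves, whereas CIP/KIP inhibitors bind cyclin-CDK complexes, block those that hold CDK2 and can help the D-type complexes to assemble. SCLC is known for frequent loss of the retinoblastoma protein and of p53, of which the former sits downstream of these kinases and the latter upstream of CDKN1A.

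Total counts ranged between 16533284 and 19099337 per library. ONECUT2 had 465, 412 and 394 counts in control and 74031, 68853 and 72763 counts in OC2-OE, which is the order the labels give. Among 9 markers of NE SCLC cells, all of them detected, 2 were higher and 6 lower in OC2-OE, with levels given in CPM (counts scaled to the depth of each library). GRP fell from 132 ± 4.92 to 6.24 ± 0.641 CPM, INSM1 from 329 ± 7.23 to 86.6 ± 7.44 CPM and NCAM1 from 164 ± 7.83 to 41.2 ± 1.85 CPM (SD, n = 3). The sum of the 9, between 5908 and 5975 CPM in control and between 5698 and 5788 CPM in OC2-OE, was mostly CALCA (3774 ± 9.98 to 2630 ± 27.0 CPM) and SCG2 (801 ± 21.4 to 2273 ± 10.3 CPM), which moved in opposite directions. Of the leukocyte markers, CD3E had 0 counts in each library and PTPRC 0 in control and 3 in OC2-OE, whereas LYZ was at 0.401 ± 0.121 CPM in control and 2.22 ± 0.395 CPM in OC2-OE, and CD14 at 3.60 ± 0.440 and 5.855 ± 0.545 CPM (SD, n = 3). The 5 fibroblast markers summed to between 20.9 and 23.7 CPM in control and between 27.4 and 30.9 CPM in OC2-OE, nearly all of it COL1A1. The 4 endothelial markers summed to at least 12.7 CPM in each control library and to between 4.17 and 4.73 CPM in OC2-OE, with KDR, at 10.6 ± 1.32 and 1.55 ± 0.227 CPM (SD, n = 3), the main contributor in control, and CDH5 at 1.01 ± 0.244 and 0.0549 ± 0.00276 CPM. Of the others, PECAM1 did not pass the test (log2 fold change 0.02), and VWF, which was not tested, had 1 count in control and 17 counts in OC2-OE. The part of these marker shifts in the results for the members was not tested. In bulk RNA of 1 cell line, fewer cells that express a marker and less of its RNA per cell cannot be told apart.

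Of the 10 genes, 7 were lower in OC2-OE, 1 was higher (CCND2) and 2 did not pass the test (CDKN1B and CCNE1), by edgeR's quasi-likelihood test with the Benjamini-Hochberg adjusted p under 0.001 across all genes tested. Over all genes tested, 56.5% passed in either direction, 27.8% were higher and 28.7% were lower. This balance turned with scaling, to 5337 higher and 4427 lower with the library size alone and 5256 and 4521 with upper-quartile normalization, from 4810 and 4966, while the members stayed at 7 lower and 1 higher. The members that passed thus made up 80% of the group, 70% lower and 10% higher. The libraries of the 2 groups did not overlap for 8 of the 10 members, and did not overlap for 73.2% of all genes tested. The median log2 fold change of the 10 was -0.92, compared with 0.01 over all genes, where the median absolute change was 0.38. Since the members were chosen with earlier results known, these comparisons with all genes are a description and not a test. Both cyclins and inhibitors were among the genes that fell. With an added minimum of 1 for the absolute log2 fold change, 4 of the members were lower (CCND1, CCNE2, CDKN1C and CDKN2C) and 0 higher, out of 2999 genes overall.

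**Figure D1:**
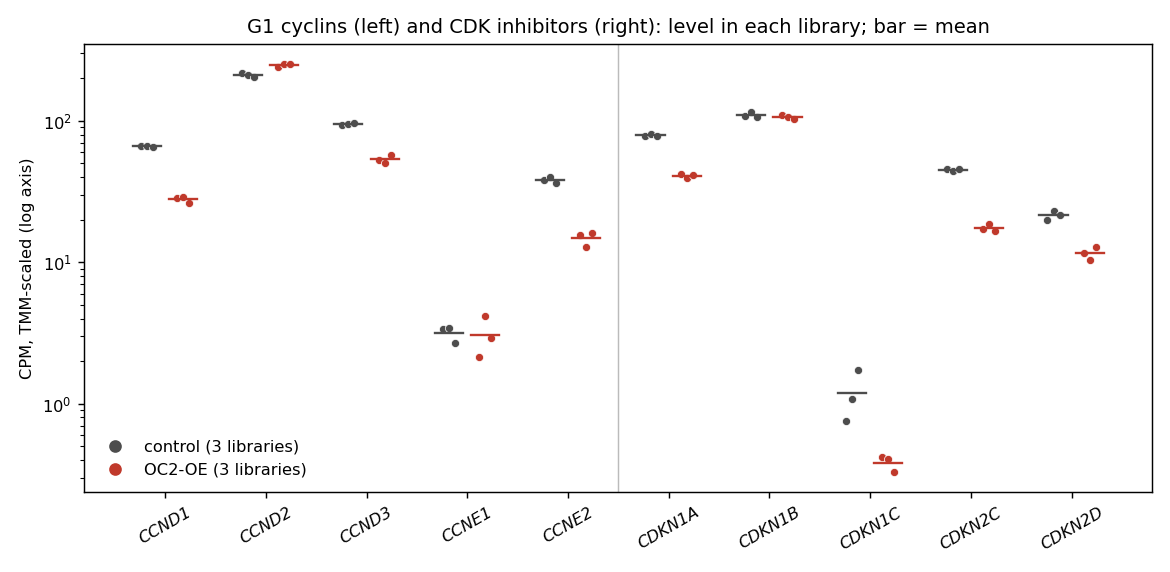
Level of each gene in every library, in CPM scaled by TMM on a log axis, with control in grey, OC2-OE in red and a bar at the mean of 3 libraries. The red points sit below the grey ones for 7 genes, above them for CCND2, and among them for CDKN1B and CCNE1; the points of CDKN1C and CCNE1 are the most spread.

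**Figure D2:**
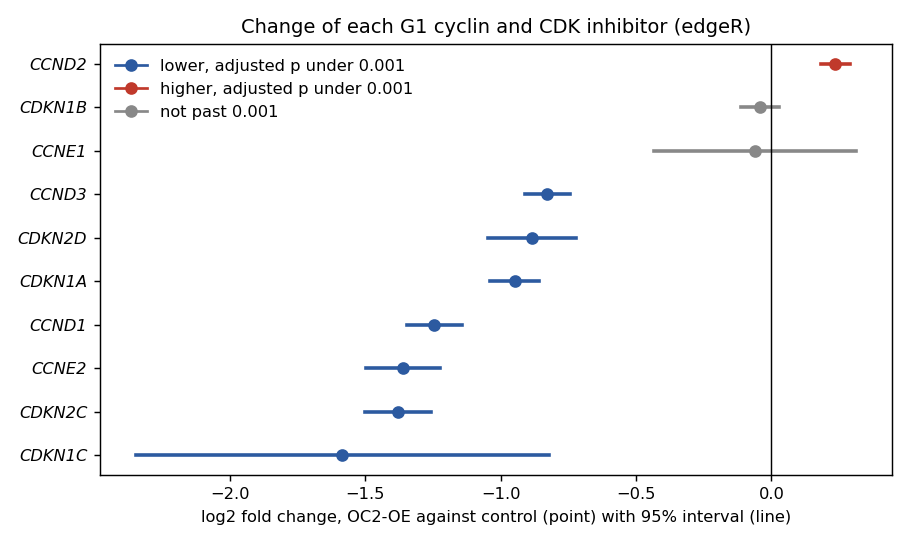
Log2 fold change of each gene in OC2-OE against control from edgeR (point) with its 95% interval (line), ordered by size. CCND2 lies to the right of 0 at 0.24, the lines of CDKN1B and CCNE1 cross 0, and the other 7 lie between -1.58 for CDKN1C, which has the widest line, and -0.83 for CCND3.

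RefSeq promoter windows (GRCh38.p14), the 250 bases before a start site, were found for 6 of the 10 members, and 1 window is printed for each of 4 genes as the sequence beside the contrast between members that fell (CDKN1A and CCND3) and members that did not pass the test (CDKN1B and CCNE1). CCND1, CCND2, CDKN1C and CCNE2 had no entry. The printed windows lie at chr6:36678464-36678713 on the plus strand for CDKN1A, at chr6:41941809-41942058 on the minus strand for CCND3, at chr12:12717118-12717367 on the plus strand for CDKN1B and at chr19:29811741-29811990 on the plus strand for CCNE1. Sequences run 5′ to 3′ along the gene and end at the base before the start site. Capitals mark the letters GGGCGG (the core of an SP1 box) or CCAAT, each on either strand.
CDKN1A: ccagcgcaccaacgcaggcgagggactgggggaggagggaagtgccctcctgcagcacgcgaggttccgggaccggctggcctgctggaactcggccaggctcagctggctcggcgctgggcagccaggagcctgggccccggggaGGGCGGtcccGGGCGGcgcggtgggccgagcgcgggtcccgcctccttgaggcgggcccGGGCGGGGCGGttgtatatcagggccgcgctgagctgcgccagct
CCND3: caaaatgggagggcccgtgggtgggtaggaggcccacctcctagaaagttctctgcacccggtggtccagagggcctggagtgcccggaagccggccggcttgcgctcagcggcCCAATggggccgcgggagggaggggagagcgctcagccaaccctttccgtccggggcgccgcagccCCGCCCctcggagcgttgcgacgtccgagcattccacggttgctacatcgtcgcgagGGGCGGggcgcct
CDKN1B: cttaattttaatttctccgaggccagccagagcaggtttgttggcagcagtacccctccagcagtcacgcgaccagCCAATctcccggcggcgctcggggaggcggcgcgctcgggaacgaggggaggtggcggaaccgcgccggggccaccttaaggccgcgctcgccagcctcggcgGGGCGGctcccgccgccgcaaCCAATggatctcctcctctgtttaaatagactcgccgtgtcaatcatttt
CCNE1: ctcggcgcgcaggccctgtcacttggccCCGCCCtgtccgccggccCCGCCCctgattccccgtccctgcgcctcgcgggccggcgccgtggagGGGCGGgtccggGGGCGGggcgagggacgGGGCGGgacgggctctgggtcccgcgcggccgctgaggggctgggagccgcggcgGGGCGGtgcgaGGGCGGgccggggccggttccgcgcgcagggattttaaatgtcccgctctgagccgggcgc
GGGCGG occurred 4 times in the window of CDKN1A, 2 times in that of CCND3, 1 time in that of CDKN1B and 7 times in that of CCNE1. CCAAT occurred 1 time for CCND3 and 2 times for CDKN1B, and was not found in the windows of CDKN1A and CCNE1. Both strings are common, since 42.6% of all 35116 promoter windows of that length held GGGCGG and 32.0% held CCAAT. The 6 genes have 10 windows, since CDKN2C and CCND3 have 3 start sites each, and the printed window of CCND3 was chosen because it holds both strings and no exon of the gene. GGGCGG was found in 8 of the 10 windows, and was absent from 1 window of CDKN2C and 1 of CCND3, which both fell. CCAAT was found in 5 of the 10. The E2F strings TTTCCCGC, TTTGGCGC, TTTCGCGC and TTTGCCGC (2.79% of all windows held at least 1), the ONECUT strings ATTGAT and ATCGAT (6.19%) and the cell cycle homology string TTTGAA (13.3%), searched on both strands, were found in none of the 10 windows of the 6 genes. These matches describe letters in a short window only.

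Among the D-type cyclins, CCND1 and CCND3 fell and CCND2 rose. CCND1 (ENSG00000110092.4, GRCh38 chr11:69641156-69654474), which encodes cyclin D1, was at 67.0, 66.2 and 65.4 CPM in control and at 28.3, 29.2 and 26.3 CPM in OC2-OE. All OC2-OE libraries lay below all controls, at a mean of 42.2% of the control level. The log2 fold change was -1.24 (SE 0.052, edgeR adjusted p = 1.04e-45), and it stayed between -1.27 and -1.20 with any 1 library left out.

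CCND3 (ENSG00000112576.13, chr6:41934934-42050357), which encodes cyclin D3, was at 94.0, 95.6 and 96.2 CPM in control and at 53.2, 50.3 and 57.4 CPM in OC2-OE. The groups did not overlap, and the mean went from 95.3 ± 1.13 to 53.6 ± 3.57 CPM (SD, n = 3). This was a log2 fold change of -0.83 (SE 0.042, edgeR adjusted p = 1.22e-37).

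CCND2 (ENSG00000118971.9, chr12:4269771-4305353), which encodes cyclin D2, went the other way. Its level was 217, 210 and 205 CPM in control and 243, 251 and 251 CPM in OC2-OE. Each OC2-OE library was above each control, but by a small step, with means of 211 ± 6.25 and 248 ± 4.94 CPM (SD, n = 3). CCND2 thus rose 1.18-fold (log2 fold change 0.24, SE 0.027, edgeR adjusted p = 9.11e-14), and the value remained between 0.21 and 0.29 in all alternatives run. CCND2 shares 999 exon bases, 12.5% of its length, with the unnamed gene ENSG00000285901 on the same strand, where read pairs that fall on both genes are not counted. That gene had 8 counts over all libraries.

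Per length, the make-up of the D-type cyclins moved toward CCND2. Counts were divided by the length of each gene's exons and scaled to the same total in each library (TPM) so that genes could be compared with each other. The length is that of all annotated exons of a gene merged, which can exceed that of the transcripts expressed. Comparisons between genes depend on it. The D-type cyclins summed to 235, 230 and 230 TPM in control and to 191, 194 and 197 TPM in OC2-OE, so that OC2-OE stood at 83.7% of control. CCND2 made up 46.4% ± 0.761 of this sum in control and 67.2% ± 0.632 in OC2-OE (SD, n = 3). The share of CCND1 went from 24.5% ± 0.0386 to 12.7% ± 0.788, and that of CCND3 from 29.1% ± 0.727 to 20.1% ± 1.19. The ratio of CCND2 to CCND1 was 1.93, 1.89 and 1.87 in control and 5.11, 5.13 and 5.68 in OC2-OE, 2.80 times as high. For this ratio and 5 others within the families the groups did not overlap, and an exact two-sided permutation test gave p = 0.1 for each (0.1 after adjustment over the 6), the smallest value that 3 against 3 libraries allow.

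Among the E-type cyclins, CCNE2 fell, whereas CCNE1 was low in both groups and did not pass the test. CCNE2 (ENSG00000175305.18), which encodes cyclin E2, was at 38.1, 40.4 and 36.2 CPM in control and at 15.5, 12.9 and 16.1 CPM in OC2-OE. The groups were well apart, with OC2-OE at 38.9% of control. On the log2 scale the change was -1.36 (SE 0.069, edgeR adjusted p = 2.03e-37). Of the exon bases of CCNE2, 37.0% lie opposite exons of INTS8, whose log2 fold change was -0.02 (edgeR adjusted p = 0.717), and the counting used the strand.

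CCNE1 (ENSG00000105173.14, chr19:29811991-29824312), which encodes cyclin E1, had 63, 57 and 44 counts in control and 41, 72 and 53 in OC2-OE. These correspond to 3.37, 3.41 and 2.71 CPM against 2.14, 4.16 and 2.91 CPM. The OC2-OE libraries held both the lowest and the highest value, and the groups overlapped. Its log2 fold change was -0.06 with a 95% interval from -0.43 to 0.31 (edgeR adjusted p = 0.785), which leaves room for a change of that size in either direction. It was 0.16 without OC2-OE replicate 1 and -0.33 without OC2-OE replicate 2. Summed per length, the E-type cyclins went from 40.7 ± 2.33 to 19.4 ± 0.957 TPM, 47.6% of control. CCNE2 supplied 87.2% ± 0.970 of that sum in control and 73.1% ± 8.68 in OC2-OE (SD, n = 3). Its share in OC2-OE was 80.2%, 63.4% and 75.6%, below all 3 controls.

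Among the CIP/KIP inhibitors, CDKN1A and CDKN1C fell and CDKN1B did not pass the test. CDKN1A (ENSG00000124762.14, chr6:36676460-36687337), which encodes p21, was at 78.1, 81.4 and 78.3 CPM in control and at 41.9, 39.6 and 41.7 CPM in OC2-OE. The groups did not overlap, and OC2-OE stood at 51.8% of control. The log2 fold change was -0.95 (SE 0.045, edgeR adjusted p = 6.9e-40). CDKN1B (ENSG00000111276.12, chr12:12685498-12722369), which encodes p27, was at 109, 115 and 106 CPM in control and at 111, 106 and 104 CPM in OC2-OE. The groups overlapped in part, with 1 control above all OC2-OE libraries and 2 OC2-OE libraries below all controls. The fitted log2 fold change was -0.04 with a 95% interval from -0.11 to 0.03 (edgeR adjusted p = 0.292), and its sign turned with scaling, to 0.01 with the library size alone.

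CDKN1C (ENSG00000129757.15, chr11:2883213-2885775), which encodes p57 and is expressed from the maternal copy in normal tissues, was near the limit of detection. It had 14, 18 and 28 counts in control and 8, 7 and 6 counts in OC2-OE. Each OC2-OE library was below each control, and the level went from 1.18 ± 0.495 to 0.384 ± 0.0475 CPM (SD, n = 3). The log2 fold change was -1.58 with a 95% interval from -2.35 to -0.82 (edgeR adjusted p = 0.000141). This was the least certain of the calls. With DESeq2 the adjusted p was 0.00345, and with edgeR it was 0.0128 without control replicate 3 (log2 fold change -1.23), 0.00109 without OC2-OE replicate 1 (-1.65) and 0.00258 without OC2-OE replicate 3 (-1.48).

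Per length, the CIP/KIP inhibitors summed to 155, 163 and 157 TPM in control and to 110, 104 and 106 TPM in OC2-OE, 67.3% of control. CDKN1A supplied 68.1% ± 0.291 of the sum in control and 53.9% ± 0.974 in OC2-OE. CDKN1B supplied 30.6% ± 0.562 and 45.5% ± 0.902, and CDKN1C 1.23% ± 0.525 and 0.609% ± 0.0721 (SD, n = 3). The ratio of CDKN1B to CDKN1A was therefore 0.449 ± 0.00918 in control and 0.843 ± 0.0316 in OC2-OE. Without division by length, CDKN1B was instead the largest part of the sum, at 57.8% in control and 72.1% in OC2-OE.

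Both INK4 inhibitors among the members fell, and the sum and shares given for them cover no other gene of that family. CDKN2C (ENSG00000123080.12, chr1:50960745-50974634), which encodes p18, was at 45.7, 44.2 and 45.6 CPM in control and at 17.1, 18.5 and 16.5 CPM in OC2-OE. The groups were far apart, with OC2-OE at 38.4% of control. The log2 fold change was -1.38 (SE 0.062, edgeR adjusted p = 2.68e-42). CDKN2D (ENSG00000129355.7, chr19:10566460-10569059), which encodes p19, was at 20.02, 22.89 and 21.58 CPM in control and at 11.7, 10.4 and 12.7 CPM in OC2-OE. No OC2-OE library reached the lowest control. On the log2 scale CDKN2D changed by -0.88 (SE 0.083, edgeR adjusted p = 3.08e-18). Together these 2 genes went from 119 ± 2.89 to 56.5 ± 1.86 TPM, 47.3% of control, and CDKN2C supplied 51.2% ± 2.09 of the sum in control and 42.8% ± 3.94 in OC2-OE (SD, n = 3).

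The order of the members by level was read on the TPM scale. In control, CDKN1A (108 ± 2.12 TPM) and CCND2 (108 ± 2.998 TPM) were at the top with overlapping libraries, followed by CCND3 (67.5 ± 0.958), CDKN2C (61.0 ± 1.38), CDKN2D (58.3 ± 3.78), CCND1 (56.7 ± 0.573), CDKN1B (48.5 ± 1.81), CCNE2 (35.5 ± 1.77), CCNE1 (5.24 ± 0.634) and CDKN1C (1.95 ± 0.823). The libraries of CDKN2C and CDKN2D, and those of CDKN2D and CCND1, also overlapped, so these neighbours could not be ordered. In OC2-OE, CCND2 stood alone at 130 ± 2.60 TPM, above every other member. CDKN1A followed at 57.5 ± 1.76 TPM and CDKN1B at 48.4 ± 1.66, which moved from place 7 to place 3. Below them were CCND3 (39.0 ± 2.58), CDKN2D (32.3 ± 3.26), CCND1 (24.6 ± 1.29) and CDKN2C (24.1 ± 1.45), of which only CCND1 and CDKN2C overlapped, and then CCNE2 (14.1 ± 1.65), CCNE1 (5.23 ± 1.73) and CDKN1C (0.649 ± 0.0804), with SD over 3 libraries in each case.

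Summed per length, the inhibitors stood at a lower percentage of control than the cyclins, and this order rests on CCND2. The 5 inhibitors summed to 278 ± 6.23 TPM in control and 163 ± 3.72 TPM in OC2-OE (58.7%), and the 5 cyclins to 272 ± 3.90 and 213 ± 3.86 TPM (78.3%). The ratio of these inhibitors to these cyclins, in summed mRNA, was 0.984, 1.04 and 1.04 in control and 0.792, 0.743 and 0.757 in OC2-OE. All OC2-OE values lay below all control values, and CCND2 made up the largest part of the cyclin sum in both groups. Without CCND2, a comparison added after the data were seen, the other 4 cyclins went from 165 ± 1.86 to 83.0 ± 1.98 TPM (50.4%), below the percentage of the inhibitors, and the ratio turned, from 1.68 ± 0.0326 in control to 1.96 ± 0.0514 in OC2-OE. These are sums of mRNA that depend on the exon lengths used, and they carry no weight for the amount of protein.

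**Figure D3:**
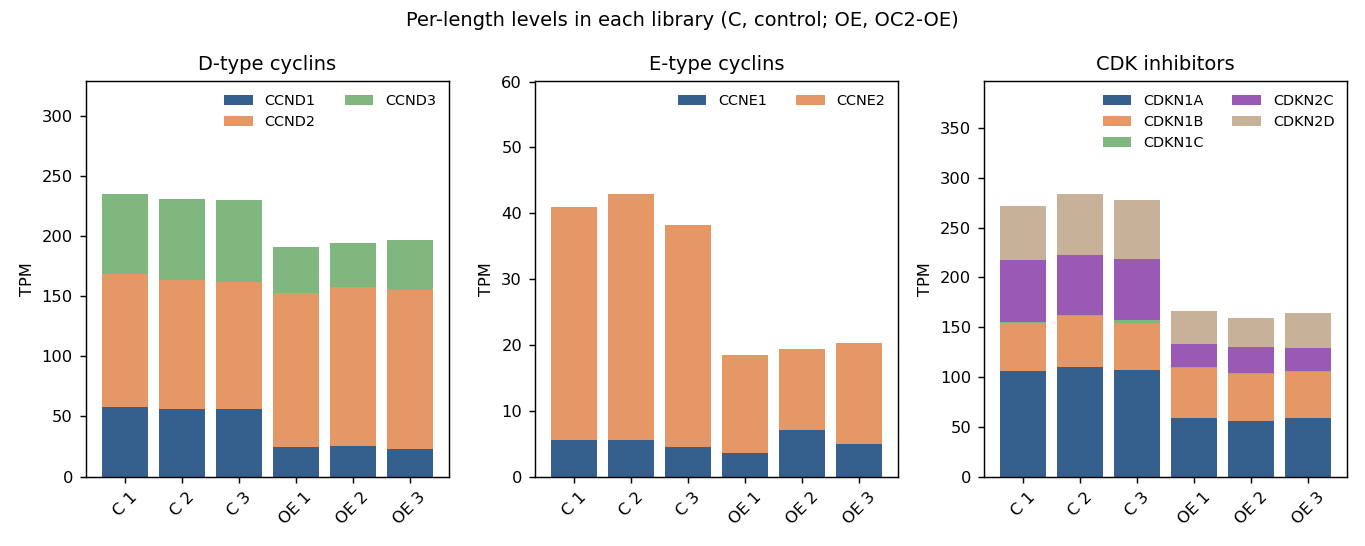
Stacked per-length levels (TPM) in each library for the D-type cyclins, the E-type cyclins and the CDK inhibitors, with control libraries as C and OC2-OE libraries as OE. The orange CCND2 block grows from 46.4% to 67.2% of the D-type bar while the bar shortens to 83.7%, the E-type bar shortens through CCNE2, and the inhibitor bar shortens to 58.7% with the CDKN1B block at the same height.

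The G1 kinases CDK2, CDK4 and CDK6 moved by at most 0.44 on the log2 scale. CDK4, the partner of the D-type cyclins, went from 273 ± 3.05 to 210 ± 5.98 CPM (log2 fold change -0.38, edgeR adjusted p = 1.61e-26). CDK6, the other partner, rose from 112 ± 0.676 to 152 ± 2.19 CPM (0.44, edgeR adjusted p = 3.65e-25). The 2 partners of the D-type cyclins thus moved in opposite directions. CDK2, the partner of the E-type cyclins, went from 48.2 ± 2.67 to 41.3 ± 0.889 CPM (-0.22, edgeR adjusted p = 5.01e-05), and passed the threshold in 11 of 15 alternatives. Of 9 G1 kinases and activators, 1 was higher, 4 lower and 4 did not pass, with a median log2 fold change of -0.04, so that the share that passed, 55.6%, was near the 56.5% of all genes. The number lower was 2 without OC2-OE replicate 1, without control replicate 2, with DESeq2 or with the library size alone. CDC25A, the phosphatase that activates CDK2, had the largest change among these genes, from 43.2 ± 1.296 to 18.5 ± 0.903 CPM (-1.23).

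Genes for the turnover of the members moved in both directions. Of 16 such genes, which include the subunits of the SCF ubiquitin ligases, 4 were higher, 9 lower and 3 did not pass (81.2% passed, median -0.20). CKS1B, the cofactor with which the SCF ligase recognises p27, fell from 64.7 ± 2.36 to 24.2 ± 0.820 CPM (log2 fold change -1.42, edgeR adjusted p = 1.37e-49). USP2, a deubiquitinase of cyclin D1, fell from 29.5 ± 0.963 to 12.0 ± 1.54 CPM (-1.29, edgeR adjusted p = 3.98e-32). FBXO4, an F-box protein reported to target cyclin D1, rose from 3.16 ± 0.652 to 5.27 ± 0.453 CPM (0.73, edgeR adjusted p = 2.91e-05) and passed in 12 of 15 alternatives.

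Downstream of the G1 kinases, 2 of 13 pocket proteins and E2F factors were higher, 7 lower and 4 did not pass (69.2% passed, median -0.28). RB1 transcripts were present, at 74.7 ± 2.45 CPM in control and 61.6 ± 0.817 CPM in OC2-OE (log2 fold change -0.28, edgeR adjusted p = 3.86e-09), which says nothing about the protein. RBL1, which encodes p107, fell from 17.5 ± 0.631 to 10.8 ± 0.618 CPM (-0.69). RBL2, which encodes p130, rose from 146 ± 7.23 to 164 ± 2.55 CPM (0.16, edgeR adjusted p = 1.9e-06). The number higher was 1 without control replicate 3. The 3 E2F genes with the largest changes were E2F8 (log2 fold change -1.39), E2F7 (-1.13) and E2F2 (from 61.3 ± 0.578 to 30.6 ± 0.894 CPM), of which E2F7 and E2F8 encode repressors. Of 9 genes of the MuvB and B-MYB complexes, which repress or activate cell cycle genes, 6 were lower and 3 did not pass (66.7% passed, median -0.35). MYBL1 (-1.83), FOXM1 (-1.58) and MYBL2 (-1.46) had the largest changes.

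Genes of the later phases fell almost without exception. Of 26 DNA replication genes of S phase, 25 were lower and 1 did not pass (UNG, log2 fold change 0.06), with a median of -0.98. GINS2 of the replicative helicase (-2.14), RRM2 of ribonucleotide reductase (-1.53) and the thymidine kinase TK1 (-1.31) had the largest changes. Of 20 later cyclins and mitotic genes, 19 were lower and 1 did not pass (NUSAP1, -0.70, at 1.04 CPM in control), with a median of -2.14. The kinase PLK1 (-2.75), the anaphase activator CDC20 (-2.55) and the kinetochore protein CENPF (-2.33) led this list. UNG and NUSAP1 were named after their values were seen. The median of the members, -0.92, was near that of the S phase genes and smaller in size than that of the mitotic genes. The cell cycle phases of the cells were not measured, and the part of a shift between phases in the levels of the members was not tested.

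**Figure D4:**
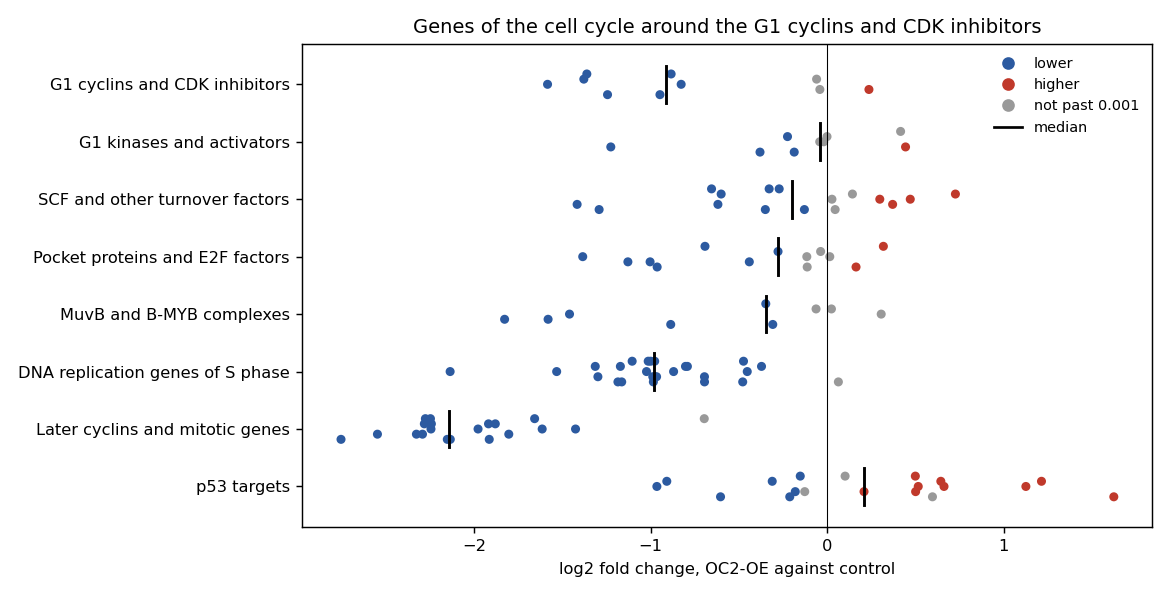
Log2 fold change in OC2-OE against control of each tested gene (point) of the members and 7 pathway lists, coloured by call, with the median of each list as a black line. The members have a median of -0.92 with CCND2 as the one red point, the S phase genes centre on -0.98, the mitotic genes on -2.14 and the p53 targets on 0.21.

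CDKN1A is best known as a target of p53, and other p53 targets moved in both directions. Of 20 listed, 19 were tested, of which 9 were higher, 7 lower and 3 did not pass (84.2% passed, median 0.21). The death receptor gene TNFRSF10B rose from 14.03 ± 0.930 to 43.3 ± 3.41 CPM (log2 fold change 1.62, edgeR adjusted p = 3.43e-45), the stress gene SESN2 from 50.6 ± 1.65 to 117 ± 3.71 CPM (1.21) and the apoptosis gene BBC3 from 8.01 ± 0.982 to 17.4 ± 1.01 CPM (1.13). The stress gene GADD45A fell from 156 ± 4.09 to 79.9 ± 2.29 CPM (-0.97, edgeR adjusted p = 1.31e-51) and the antiproliferative gene BTG2 from 109.9 ± 2.21 to 58.5 ± 1.42 CPM (-0.91, edgeR adjusted p = 6.5e-44), close to CDKN1A at -0.95. GADD45A and BTG2 were named after their values were seen. The number lower was 4 with DESeq2, with the library size alone or with upper-quartile normalization, and between 5 and 6 with any 1 library left out.

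CDKN1C lies in an imprinted domain of chromosome 11. Of 12 genes listed there, 10 were tested, of which 3 were higher, 5 lower and 2 did not pass (80% passed, median -0.29). H19, a noncoding RNA, was at 1.03 ± 0.176 CPM in control and 0.185 ± 0.0700 CPM in OC2-OE (log2 fold change -2.44, edgeR adjusted p = 1.25e-06). SLC22A18AS, 1569 bases from CDKN1C, fell from 11.3 ± 0.698 to 5.41 ± 0.662 CPM (-1.06, edgeR adjusted p = 7.41e-15). OSBPL5 was at 0.718 ± 0.370 CPM in control and 1.75 ± 0.441 CPM in OC2-OE (1.27, edgeR adjusted p = 0.000153) and passed in 10 of 14 alternatives. H19 and OSBPL5 were thus at low levels, like CDKN1C itself. CD81 (52.6 ± 1.73 to 97.7 ± 3.06 CPM, log2 fold change 0.89) and SLC22A18 (30.6 ± 1.15 to 51.2 ± 3.06 CPM, 0.74) were higher at levels well above these. Both were named after their values were seen. Genes of the domain thus moved in both directions.

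The nearest tested genes were compared with each member to see whether a member moved with its surroundings. Beside CDKN1A, SRSF3 (log2 fold change -0.57) and PPIL1 (-0.35) were both lower, each less than CDKN1A. Beside CDKN2C, FAF1 was lower (-0.41) and RNF11 did not pass (0.00). Beside CDKN1C, SLC22A18AS was lower (-1.06, edgeR adjusted p = 7.41e-15) and KCNQ1 did not pass (-0.91, edgeR adjusted p = 0.0245). On either side of CCNE2, which fell, DPY19L4 (0.35) and TP53INP1 (0.21, past the threshold in 10 of 15 alternatives) were higher, whereas NDUFAF6, which overlaps its span, was lower (-0.29, edgeR adjusted p = 4.65e-05). Beside CDKN2D, AP1M2 was lower (-0.23) and KRI1 did not pass (0.16). Around CCND3, CCND2 and CCNE1 no tested neighbour on either side passed the test, with values between -0.10 for PARP11 and 0.38 for C19orf12, and CCND2-AS1, which overlaps CCND2 on the opposite strand, did not pass either (0.44, edgeR adjusted p = 0.102).

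The largest contrast was around CCND1. FGF19, which lies 43764 bases beyond the end of CCND1 and encodes a secreted growth factor, had 7, 2 and 5 counts in control and 461, 382 and 444 counts in OC2-OE. Its mean was 0.267 ± 0.132 CPM in control and 23.5 ± 1.26 CPM in OC2-OE (n = 3), which gave 6.40 on the log2 scale (edgeR adjusted p = 1.85e-62). CCND1 fell while FGF19 rose. LTO1, which overlaps CCND1 on the opposite strand over 497 exon bases, did not pass (0.06, edgeR adjusted p = 0.374), and TPCN2, 504840 bases before CCND1, rose (0.76, edgeR adjusted p = 5.63e-09). GPR19, on the opposite strand with a span that overlaps that of CDKN1B in part, fell from 4.45 ± 0.0411 to 1.61 ± 0.138 CPM (-1.46, edgeR adjusted p = 3.11e-11) while CDKN1B did not pass, and APOLD1, 3548 bases after it, did not pass either (0.40, edgeR adjusted p = 0.00307). CCND1 and CDKN1B thus each had a neighbour past the threshold with a larger change than their own. Larger fitted changes beside CCND2 (CCND2-AS1) and CCNE1 (such as C19orf12) did not pass the test.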

How the data were processed

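DMS53 libraries (3 control, 3 OC2-OE) were poly(A) selected and stranded. The authors aligned reads with STAR 2.7.9a and counted pairs on exons with featureCounts 1.6.0 (GENCODE 42, GRCh38), and the deposited values are raw counts of 62696 genes, with totals between 16533284 and 19099337 that limit the precision of genes such as CCNE1 and CDKN1C. Symbols were taken from the reference tables for 62625 of the gene IDs.

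Genes were filtered with filterByExpr, scaled by TMM and tested with edgeR 4.0.16 (quasi-likelihood, robust; R 4.3.3), with Benjamini-Hochberg adjusted p under 0.001, the threshold of the study, over all tested genes. Intervals are at 95%. TPM used the exon lengths in the files. The pipeline was tested on simulated data. Alternatives were other scalings, filters and thresholds, DESeq2 1.42.0, limma 3.58.1 (voom), a replicate block, length left out, and each library left out in turn. Members, lists and neighbours were chosen with earlier results of these data known, and on each list the 3 genes with the largest change past the threshold were named, with CDK2, CDK4, CDK6, RB1, RBL1 and RBL2. Reads and protein sequences were not used here. One marker gene is not reported here.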

Additional observations from a re-analysis of the deposited data

How the results depend on the processing

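The directions of the 8 members past the threshold held in all alternatives run, and 7 of the 8 (all but CDKN1C) kept their side of the threshold in each alternative that added no minimum fold change. CDKN1C was not past it with DESeq2 (log2 fold change -1.62, adjusted p = 0.00345) and, with edgeR, without OC2-OE replicate 1, OC2-OE replicate 3 or control replicate 3; it ranged from -1.85 to -1.23 with 1 library left out (adjusted p between 2.8e-05 and 0.0128 over all its alternatives), and was not tested with at least 10 counts in every library. With 1 library left out, 6 to 7 members were lower and 1 higher, and 8944 to 9340 genes passed in all. With a minimum absolute log2 fold change of 1, 2999 genes passed (1435 higher, 1564 lower), 4 members were lower and 0 higher, and 41 genes of the 8 pathway lists were lower and 4 higher, as fewer genes meet a stricter rule. Without division by length, CCND2 made up 56.6% (control) and 75.3% (OC2-OE) of the D-type cyclins, CCNE2 92.4% and 82.7% of the E-type cyclins, CDKN1B 57.8% and 72.1% of the CIP/KIP inhibitors and CDKN2C 67.7% and 60.0% of the INK4 inhibitors, so the directions were as with length. Library size alone moved the median of all genes by 0.05 (log2).

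Same-numbered libraries did not deviate together (correlations -0.003, 0.02 and 0.015 over genes). With a replicate block, 9642 genes passed, 7 members were lower and 1 higher, and no call of a member changed. The depth limits CCNE1 and CDKN1C, with 164 and 60 counts in the control group.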
